A study of Drosophila melanogaster and Drosophila biarmipes with 20 samples.

Results

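The genes described here encode the structural proteins of the cuticle of Drosophila melanogaster, taken as the protein-coding genes of the dm6 assembly whose symbols begin with Cpr and a digit, Twdl, Ccp84A, Lcp, Pcp, Acp and a digit, or Edg and a digit. The rule found 140 of the 13946 protein-coding genes on the X, 2L, 2R, 3L, 3R, 4 and Y. Of these, 17 are Acp genes of the male accessory gland, which makes seminal fluid, so the label did not hold for them and they are given apart. The other 123 genes were 70 Cpr, 25 Twdl, 15 Lcp, 7 Ccp84A and 3 Edg genes, Pcp, and the pair Acp1 and Acp65Aa. Open regions from all 10 D. melanogaster libraries were merged into 98642 regions. A region belonged to a gene if it overlapped the gene's span, or lay within 10 kb with no closer protein-coding gene. The 140 genes had 486 regions and the 123 cuticle genes 454, of which 262 overlapped a span, 192 lay beside one and 42 also overlapped some other gene.

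Insect cuticle is an extracellular layer of chitin fibres embedded in protein, laid down by the epidermis and replaced at each moult. Most Cpr proteins carry the Rebers and Riddiford chitin-binding domain, as do many larval (Lcp) and pupal (Pcp) cuticle proteins, whereas the Tweedle (Twdl) proteins form a family of their own. The wing epithelium deposits a pupal cuticle early in metamorphosis and the adult cuticle later, each with its own set of proteins. Many of these genes are short and stand in tandem clusters.

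The study compared male wings at 5 stages, given as the percentage of the pupal period that had passed. Accessible DNA was mapped by ATAC-seq, where a transposase cuts chromatin that is open and adds sequencing adapters. Wing imaginal discs were taken at 0%, and pupal wings at 48%, 60%, 69% and 78%, with 2 libraries per stage that the labels call biological replicates. The 0% libraries used 24 discs, the 48% libraries 14 to 17 wings of at least 11 flies, and the later libraries 24 wings, which were cut before disruption when older than 60%. All flies were males of genome lines kept at 20 °C. The labels name no strain, genotype or treatment, and the D. biarmipes wings of the same study are not analysed here.

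The libraries held 56282342 to 119278540 tags, from which the authors' lists named 41485 to 80705 open regions each. The shortest lists were 41485 regions in replicate 1 of 48%, 48036 in replicate 2 of 60% and 51422 in replicate 2 of 48%. The caller had used an estimated fragment length of 138 to 208 bp in replicate 1 of 0%, both libraries of 48% and replicate 2 of 60%, and of 50 to 58 bp in the 6 others. Its headers placed all replicate 1 libraries and replicate 2 of 48% in one dated folder and the 4 others in another. A stage in bulk tissue mixes cell types, and fewer open cells cannot be told apart from less opening in each cell. Genes marking adult muscle had a mean of 16.0% and 21.2% of the span inside listed regions in the disc libraries and 5.66% to 9.64% later, hemocyte genes 14.1% and 18.1% against 4.20% to 8.41%, and neuronal genes 11.0% and 13.5% against 6.25% to 11.3%. Tracheal genes stood at 24.4% and 26.3% in discs and at 15.9% to 23.3% later. Members differed within these lists. By stage mean the muscle genes Mhc, sls, Mlc2, bt and Act57B were highest in discs, and Tm2, up, Act88F and wupA at a pupal stage. The neuronal genes Syt1, scrt, elav and futsch were highest in discs, and nSyb, brp, pros and cpo at a pupal stage. The hemocyte gene lz and the tracheal genes uif, btl and kni were also highest at a pupal stage. Wing epithelium genes stood at 22.3% and 24.6% in discs and at 16.7% to 24.3% later. All 7 were listed in both libraries at each stage, as were all 5 tracheal genes. No marker gene was unlisted in all 10 libraries. The part of these other cells, of list length and of the fragment setting in the values below was not tested.

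A gene was counted as covered at a stage when both libraries listed at least 1 base of its span. By this measure 64 of the 123 cuticle genes (52.0%) were covered in wing discs, 39 (31.7%) at 48%, 48 (39.0%) at 60%, 57 (46.3%) at 69% and 50 (40.7%) at 78%. Cuticle genes were thus covered most often in the disc and least often at 48%. The background over all protein-coding genes moved less, at 76.8%, 69.6%, 75.1%, 78.1% and 75.8%. Cuticle genes were short, with a median span of 957 bp against 2161 bp over all genes. Among protein-coding genes up to 2 kb long the background was lower, at 61.7%, 50.9%, 58%, 62.4% and 58.6%, still above the cuticle genes at each stage.

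**Figure D1:**
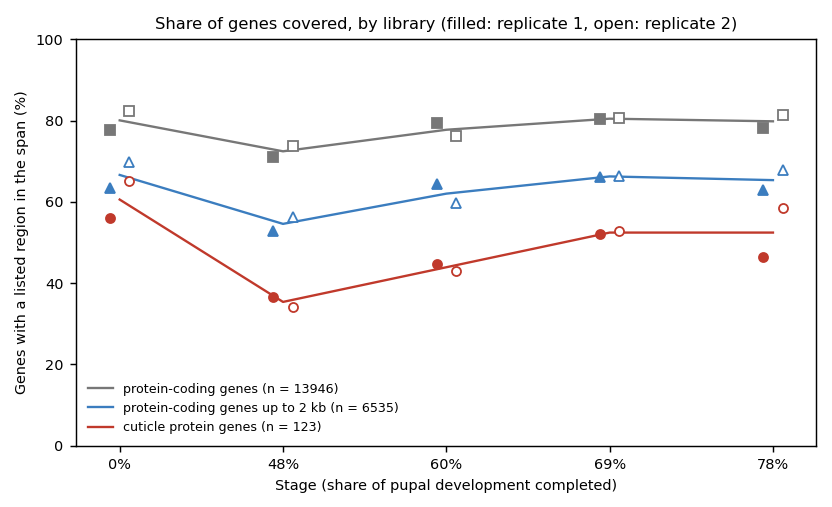
Share of genes (vertical axis, percent) whose span shares at least 1 base with a listed open region, for each library, by stage (horizontal axis). Red circles are the 123 cuticle genes, blue triangles the 6535 protein-coding genes up to 2 kb and grey squares all 13946 protein-coding genes; filled symbols are replicate 1, open symbols replicate 2 and lines join stage means. The cuticle genes lie below both backgrounds in every library and are lowest at 48%.

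Library by library, 69 and 80 cuticle genes were listed in the disc replicates, 45 and 42 at 48%, 55 and 53 at 60%, 64 and 65 at 69%, and 57 and 72 at 78%. The 48% libraries were below all others, and the 2 replicates of 78% differed by more than the 2 of 69%. When each list was shortened to its first 41479 regions outside the mitochondrial genome, the 140 genes of the symbol rule were covered 63, 45, 51, 57 and 47 times from 0% to 78%, against 76, 45, 55, 64 and 56 with full lists. The low point stayed at 48%, but at 45 against 47 at 78% it was close to the latter. No background for shortened lists is given here. Adding 500 bp on each side of the span raised these counts to 107, 77, 93, 108 and 102.

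By family, covered genes were distributed over the stages as follows. Of the 25 Tweedle genes, 16 were covered in discs and 6, 7, 8 and 6 at the later stages. Of the 15 Lcp genes, 8 were covered in discs and 4, 2, 3 and 3 later. The 70 Cpr genes gave 37, 28, 36, 39 and 37, so their number at 69% and 78% was at or above that in discs. These were shares of 52.9%, 40%, 51.4%, 55.7% and 52.9%. Over all protein-coding genes the shares were 76.8%, 69.6%, 75.1%, 78.1% and 75.8%. The background too was near or above its disc value at 69% and 78%, so this course was not particular to Cpr genes. Of the 7 Ccp84A genes, which lie in the Antennapedia complex with Edg84A, the count was 1, 0, 1, 3 and 1. Of the 17 seminal fluid genes, 12 were covered in discs and 6, 7, 7 and 6 later, so the count was also lower after the disc in genes of the accessory gland.

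Coverage in discs alone was found for 7 cuticle genes, listed in both disc libraries and in none of the 8 pupal libraries. These were the Tweedle genes TwdlF, TwdlM, TwdlP, TwdlK and TwdlC and the larval cuticle genes Lcp65Ag2 and Lcp65Ae. They made up 5.69% of the cuticle genes, against 1.65% of all protein-coding genes and 2.85% of those up to 2 kb. The reverse, no disc library and both libraries of at least 1 pupal stage, held for 10 genes (8.13%): Pcp, Cpr30F, Cpr47Ed, Cpr64Aa, Cpr67Fb, Cpr72Ea, Cpr72Ec, Cpr76Bb, Cpr78Cc and Ccp84Ag. Here the background was 5.1% of all protein-coding genes and 7.51% of those up to 2 kb. Another 30 cuticle genes (24.4%) were listed in all 10 libraries, compared with 63.6% of all genes and 43.2% of those up to 2 kb.

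**Figure D2:**
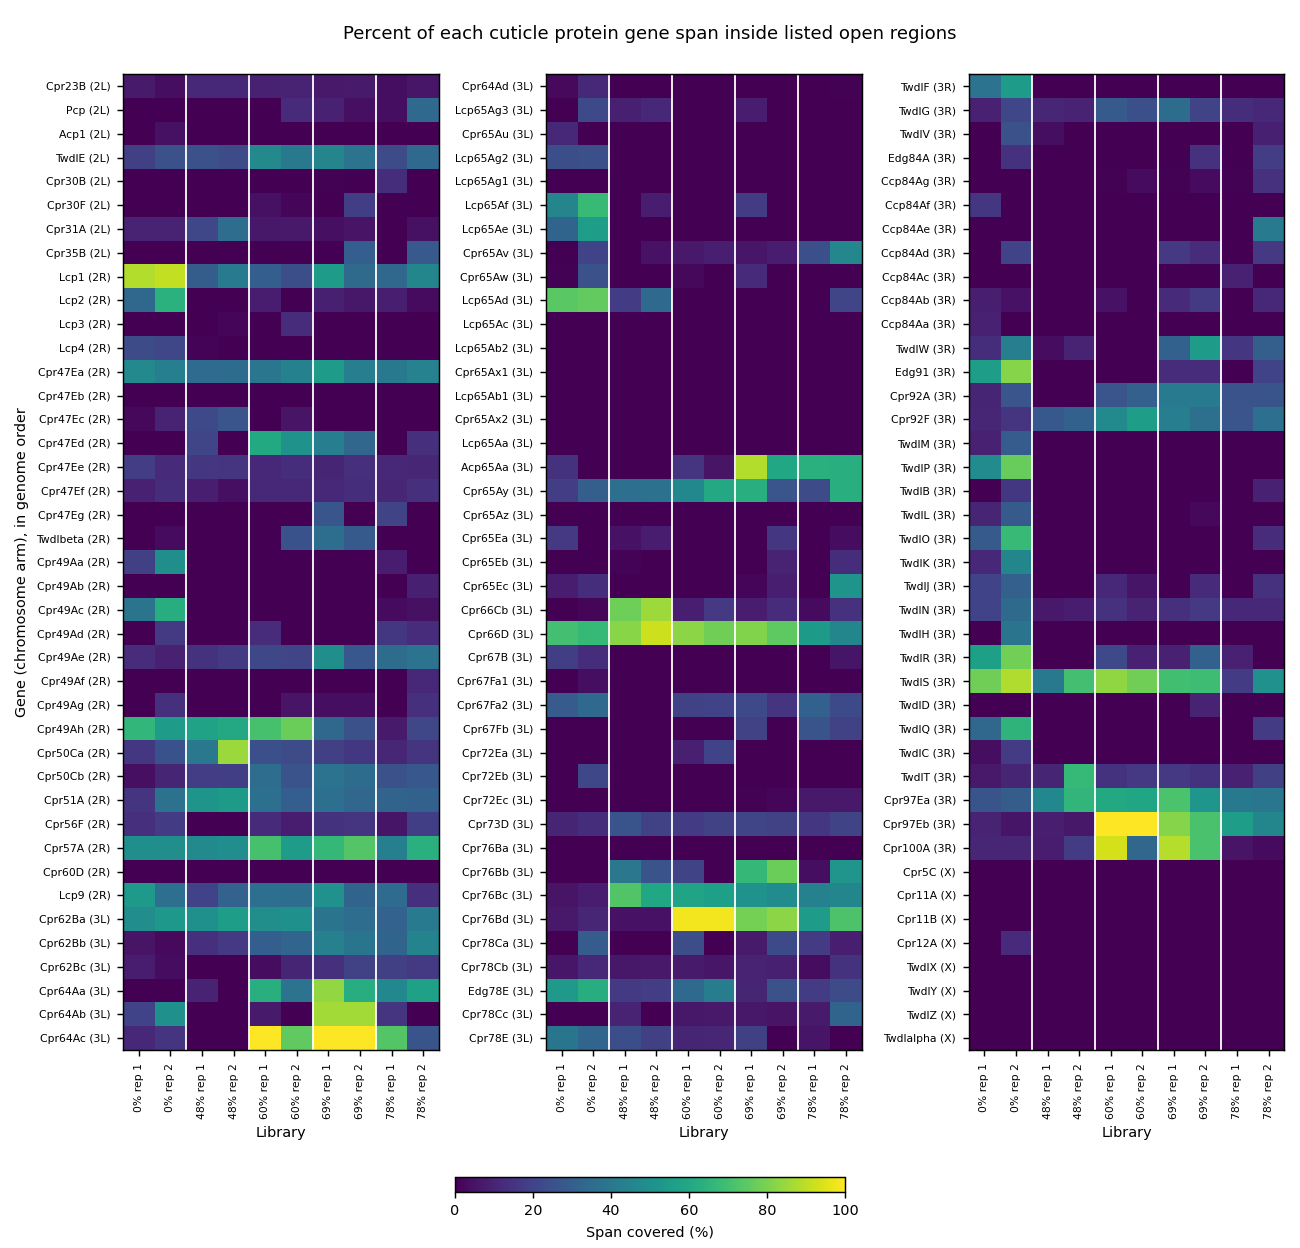
Percent of the span inside listed open regions (colour, 0 to 100) for each of the 123 cuticle genes (rows, in genome order with the chromosome arm) in each of the 10 libraries (columns, white lines between stages). The TwdlP, TwdlO, TwdlR and TwdlS rows are bright in the 2 disc columns, Cpr66Cb at 48%, and Cpr76Bd, Cpr97Eb and Cpr64Ac from 60%, while the last rows, on the X, are dark.

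A region was called opened between 2 stages when both libraries of the later stage listed it and neither of the earlier one did, and closed in the reverse case. An exact two-sided test of 2 libraries against 2 cannot give a p below 0.333, so single regions have no p-value. From disc to 48%, 27 of 345 cuticle regions opened (7.83%, background 8.84%) and 72 closed (20.9%, background 19.8%). From 48% to 60%, 32 of 255 opened (12.5%, background 11.3%) and 11 closed (4.31%, background 4.07%). From 60% to 69%, 28 of 294 opened (9.52%, background 7.62%) and 6 closed (2.04%, background 2.66%). From 69% to 78%, 9 of 324 opened (2.78%, background 3.17%) and 16 closed (4.94%, background 4.35%). Each share lay near that of all assessed regions, so the traffic of regions as a whole was not a feature of the cuticle genes. Over the whole pupal interval from 48% to 78%, 58 of 313 opened (18.5%, background 16.5%) and 16 closed (5.11%, background 5.26%).

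**Figure D3:**
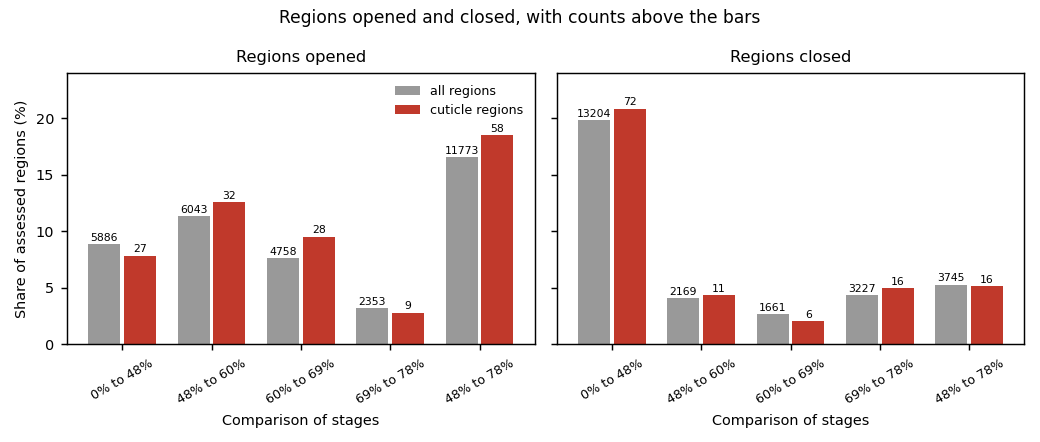
Share of assessed regions (vertical axis, percent) that opened (left) or closed (right) in each comparison of stages. Red bars are cuticle gene regions and grey bars all regions, with the number of regions above each bar; closing exceeds opening in the step from 0% to 48% and opening exceeds closing from 48% to 69%.

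The excess of closing over opening from disc to 48% was smaller when list lengths were equal. For the 486 regions of the whole rule it was 81 closed to 28 opened with full lists and 48 closed to 44 opened at an equal number of regions per library. The first dated folder alone, with 1 library per stage, gave 98 closed and 50 opened in that step, 81 opened and 18 closed from 48% to 60%, 56 opened and 29 closed from 60% to 69%, and 28 opened and 57 closed from 69% to 78%. The direction of each of these 4 steps was thus the same within that folder. Replicate 2 alone gave 51 opened and 40 closed from 69% to 78%, and the pooled lists 41 and 40, so the direction of that step was not stable. From 48% to 78%, 63 opened and 17 closed in the 486 regions with full lists, and 32 and 33 with lists of equal length, so the excess of opening was lost there.

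Of the 454 cuticle regions, 90 (19.8%) were listed in both libraries at all 5 stages, against 16.7% of all regions. Regions of discs alone numbered 32 (7.05%, background 5.84%). Regions of all 4 pupal stages but not the disc numbered 19 (4.19%, background 2.67%), and 10 were listed from 60% on (2.20%, background 1.55%). Few belonged to a single pupal stage, with 4 at 48% (background 0.93%), 1 at 60% (0.301%), 4 at 69% (0.711%) and 3 at 78% (1.53%). Pairs of stages had 7 at 69% and 78% (1.54%, background 1.36%), 2 at 60% and 69% (0.441%, background 0.212%) and 1 in discs and 48% (0.220%, background 0.36%). In 261 regions (57.5%, background 64.3%) the 2 libraries of at least 1 stage differed, so these regions had no clear stage.

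The covered share of each span was then compared between stages. For each gene an exact permutation test asked whether the 2 libraries of a stage were closer than in all 945 ways of pairing the 10 libraries (one-sided), with Benjamini-Hochberg adjustment over the 12699 protein-coding genes whose values varied. The smallest raw p this allows is 0.00106, and a gene with different values at a single stage and equal values elsewhere cannot go below 0.111, so genes covered in discs alone could not pass. Of 105 cuticle genes tested, 10 passed an adjusted p of 0.05 (9.52%), against 15.1% of all genes tested and 8.46% of those up to 2 kb. All 10 were Cpr genes, and none of the 13 seminal fluid genes tested passed. With 500 bp on each side of the span 24 cuticle genes passed, of which 19 were Cpr genes and the others were Lcp65Ad, Acp65Aa, Edg91, TwdlC and Ccp84Ac, as did 2 seminal fluid genes, so the restriction to Cpr genes did not hold there. With equal list lengths 13 Cpr genes, Edg78E and the seminal fluid gene Acp53Ea passed. Each of these settings kept 8 of the 10. Their highest stage mean was at 48% for Cpr31A, Cpr66D and Cpr76Bc, at 60% for Cpr49Ah, Cpr76Bd, Cpr92F and Cpr97Eb, and at 69% for Cpr50Cb, Cpr62Bb and Cpr64Ac. Of all genes that passed, 27.4% had their highest mean at 0%, 19.5% at 48%, 13.6% at 60%, 14.7% at 69% and 24.8% at 78%. None of the 10 cuticle genes that passed was highest at 0% or 78%. Genes covered at 0% alone or 78% alone could not pass, so the test cannot show whether cuticle genes differ from all genes here. The median range of stage means was 17.9 percentage points in cuticle genes and 12.8 over all protein-coding genes, or 15.5 in those up to 2 kb.

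These calls rested on all 10 libraries. None of the 10 passed without replicate 1 of 48%, or without either library of 60% or of 69%. In those 5 settings no gene of the genome passed either, the smallest adjusted p of the exact test being 0.0520 to 0.0602. Without 1 of the other libraries, 3 passed without disc replicate 1, 6 without disc replicate 2, 1 without replicate 2 of 48%, 6 without replicate 1 of 78% and 5 without replicate 2 of 78%. At an unadjusted p of 0.05, 38 of the 118 genes of the rule that were tested passed, against 42.9% of all genes. The 2 dated folders could not be tested apart, since the second holds no 48% library.

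Of the genes with a listed base, the highest stage mean was in discs for 15 of 21 Tweedle, 9 of 10 Lcp, 2 of 3 Edg, 2 of 7 Ccp84A and 14 of 61 Cpr genes. Among the seminal fluid genes it was in discs for 8 of 13, so a disc peak was not confined to cuticle families. These are counts of means, with no test and no share over all protein-coding genes beside them. Among the Cpr genes, Cpr49Ac had 38.4% and 62.3% in discs, 0% in the 6 libraries of 48% to 69%, and 2.98% and 4.57% at 78% (adjusted p of the exact test 0.0645). The 12 Tweedle genes from TwdlM to TwdlD stood in a run of 21.9 kb on 3R, from 26619118 to 26641054. Listed regions filled 25.4% and 40.9% of the run in the disc libraries, 4.54% and 9.10% at 48%, 15.3% and 10.3% at 60%, 11.7% and 16.1% at 69%, and 8.21% and 13.0% at 78%. Both disc libraries were above all 8 pupal libraries, although they differed by more than any other pair. Of 39 regions assessed from disc to 48%, 11 closed and none opened, against backgrounds of 19.8% and 8.84%, and the closings over all 486 regions dropped from 81 to 48 with equal list lengths. In the run 9 of the 12 genes were covered in discs against 2 at 48%.

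TwdlR (3R, 26634885 to 26635998), a Tweedle gene inside this run, was covered over 56.6% and 78.6% of its 1114 bp in discs. It had no listed base in either 48% library, 22.2% and 9.07% at 60%, 9.07% and 30.9% at 69%, and 9.07% and 0% at 78%. The disc libraries did not overlap with the others, and the adjusted p of the exact test was 0.0956. TwdlP had 48.2% and 76.8% in discs and no listed base in any pupal library. Its neighbour TwdlS stayed covered throughout, with 78.4% and 87.9% in discs, 40.6% and 70.2% at 48%, 83.6% and 78.5% at 60%, 69.5% and 69.0% at 69%, and 17.8% and 50.6% at 78%. Neighbouring genes of 1 family thus had unlike profiles.

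TwdlM, at the start of the run, had 9.30% and 29.2% of its 1107 bp covered in discs and no listed base afterwards. Of its 14 assigned regions 3 closed from disc to 48%, and 2 of those, 5687 and 3604 bp away from the gene, were listed again at 60%. TwdlQ (3R, 26692546 to 26693590), a Tweedle gene outside the run, had 13 regions, of which 7 closed from disc to 48%. The closest lay over the gene at 26692641 to 26693319 and was listed over 351 and 679 bp in discs, over 0 bp in the next 7 libraries and over 183 bp in replicate 2 of 78%. TwdlF (3R, 4247020 to 4248313), in a second run with TwdlG and TwdlV, had 38.1% and 54.7% in discs and 0% in all 8 pupal libraries.

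**Figure D4:**
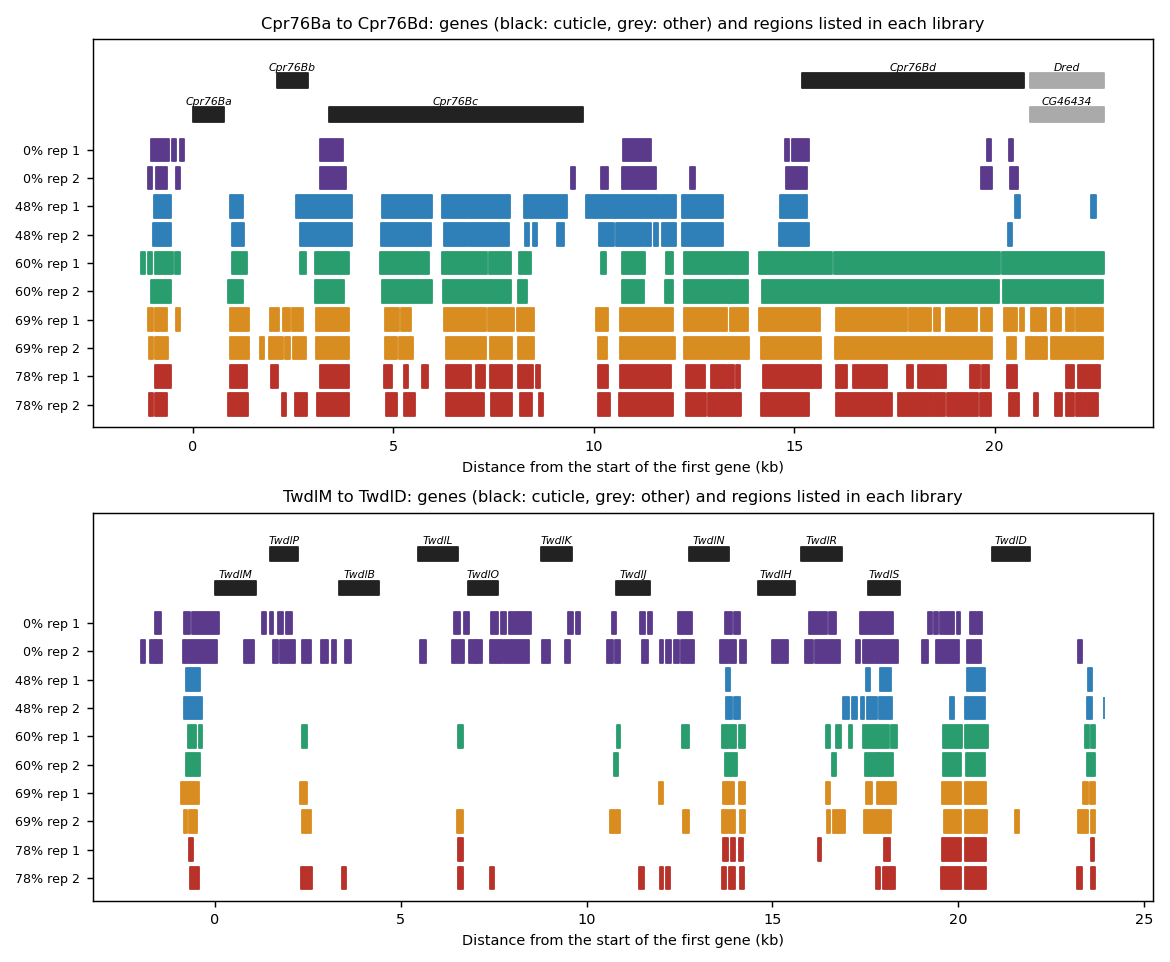
Regions listed in each library (coloured bars, 1 row per library) along the Cpr76Ba to Cpr76Bd run (top) and the TwdlM to TwdlD run (bottom); the horizontal axis is the distance in kb from the start of the first gene, black boxes are cuticle genes and grey boxes other genes. Over Cpr76Bd regions fill nearly the whole span at 60%, while the bars over the Tweedle genes are densest in the 2 disc rows.

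Of the 10 Lcp genes with a listed base, 9 had their highest stage mean in discs, the exception being Lcp3, with 12.8% in replicate 2 of 60%. Lcp65Ad (3L, 6143395 to 6144101), in the large 65A run, was covered over 74.4% and 76.1% of its span in discs, 17.8% and 34.4% at 48%, 0% in the 4 libraries of 60% and 69%, and 0% and 20.9% at 78%. Discs were above all pupal libraries, and the adjusted p of the exact test was 0.0909. It was 0.0412 with 500 bp on each side, 0.0679 with equal list lengths and 0.0593 to 0.149 without 1 library. Lcp1 on 2R had 88.4% and 90.9% in discs, 29.7% and 41.4% at 48%, 29.8% and 23.9% at 60%, 54.9% and 34.6% at 69%, and 33.3% and 45.8% at 78%. Its near copy Lcp2 had 33.8% and 63.9% in discs and 0% to 8.80% in the pupal libraries. Values of such near-identical neighbours are uncertain, because reads that fit both may have been split or dropped. The run from Lcp1 to Lcp4 was covered over 36.2% ± 3.65 (SD, n = 2) in discs and 13.4% ± 2.67 to 17.6% ± 1.10 (SD, n = 2) later.

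The ecdysone-dependent genes Edg78E and Edg91, first isolated from imaginal discs responding to the moulting hormone, were also most covered in discs. Edg91 had 55.5% and 81.7% there, 0% in the 4 libraries of 48% and 60%, 12.7% in both libraries of 69%, and 0% and 20.3% at 78%. Edg78E had 53.6% and 62.2% in discs, 17.0% and 18.1% at 48%, 34.0% and 41.9% at 60%, 10.2% and 24.8% at 69%, and 17.7% and 23.2% at 78%. For both the disc libraries stood above all others, with an adjusted p of the exact test of 0.113 for Edg91 and 0.0645 for Edg78E. With 500 bp on each side it was 0.0431 and 0.128, and with equal list lengths 0.0679 and 0.0361. Edg84A was listed in 1 library each of 0%, 69% and 78%, so it had no clear stage.

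The 48% wing had few genes of its own. Cpr66Cb (3L, 8336672 to 8338595) was covered over 78.1% and 85.2% of its 1924 bp at 48%, against 0% and 1.35% in discs, 8.52% and 16.4% at 60%, 8.16% and 12.9% at 69%, and 2.81% and 14.1% at 78%. The 48% libraries were far above all 8 others, with an adjusted p of the exact test of 0.0885. It was 0.0361 with equal list lengths, 0.104 with 500 bp on each side and 0.0690 to 0.152 without 1 library. Beside the gene, 3 regions that lay 350, 1254 and 2356 bp away opened from disc to 48%. One of these, at 8335998 to 8336322, was listed over 308 and 251 bp at 48% and in no other library.

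Cpr31A (2L, 10054213 to 10055935) passed the test with its highest mean at 48%. It was covered over 9.52% and 9.98% in discs, 21.3% and 35.8% at 48%, 6.56% and 6.73% at 60%, 4.18% and 5.40% at 69%, and 0% and 4.35% at 78% (adjusted p of the exact test 0.0343). This adjusted p was 0.0557 to 0.123 without 1 library, so Cpr31A passed in none of those settings. One region inside it, at 10055217 to 10055712, was listed over 367 and 496 bp at 48% and in no other library. Cpr66D, one of the 10 genes that passed, was covered over 45.9% or more of its span in each library, with 87.3% ± 7.10 at 48% and 50.2% ± 6.11 at 78% (SD, n = 2). Its adjusted p of the exact test was 0.0464, or 0.0697 with 500 bp on each side and 0.0516 to 0.0916 without 1 library. In Cpr50Ca the 48% libraries gave 39.9% and 85.0% and the others 10.8% to 25.2%, so the 48% replicates differed more from each other than the other stages did.

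The 4 genes from Cpr76Ba to Cpr76Bd spanned 20.7 kb on 3L and gained coverage in 2 steps. Listed regions filled 9.52% and 13.8% of the run in discs, 47.2% and 40.1% at 48%, 65.5% and 63.0% at 60%, 64.2% and 65.6% at 69%, and 49.6% and 58.2% at 78%. Disc values lay below all pupal values. From disc to 48%, 4 of 12 regions opened and none closed, against backgrounds of 8.84% and 19.8%, and 4 of the 15 regions were listed at all pupal stages but in no disc library.

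The first step lay over Cpr76Bc (3L, 19520945 to 19527272). Its 6328 bp were covered over 5.36% and 8.17% in discs, 72.7% and 59.6% at 48%, 58.3% and 56.6% at 60%, 50.8% and 48.8% at 69%, and 44.1% and 45.8% at 78%. The 2 disc libraries stood apart from the 8 pupal ones, and stage means fell in order from 48% to 78% (adjusted p of the exact test 0.0286, the smallest it can give). Regions at 19522207 to 19523525, 19523766 to 19525550 and 19525640 to 19526891 within the gene were listed in all 8 pupal libraries and in no disc library. The middle one was listed over 1394 to 1717 bp in each pupal library.

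The second step lay over Cpr76Bd (3L, 19532743 to 19538289), whose 5547 bp were covered over 6.87% and 10.8% in discs and 4.80% and 4.98% at 48%. Coverage was 98.4% in both libraries of 60%, 79.2% and 82.5% at 69%, and 55.4% and 71.9% at 78%. Between 48% and 60% nearly the whole gene thus passed into listed regions, and the adjusted p of the exact test was 0.0286. At 60% listed regions also ran on past the gene over CG46434 and Dred. The region at 19531663 to 19537686 already had 622 to 775 bp listed in the disc and 48% libraries. In discs these bases lay in separate pieces, the longest of 420 and 522 bp. The region was listed over 5966 and 5923 bp at 60%, 5045 and 5389 bp at 69%, and 3815 and 4775 bp at 78%. It therefore counted as neither opened nor closed by the region rule. Without 1 library in turn, the adjusted p ranged from 0.0350 to 0.0671 for Cpr76Bd and from 0.0400 to 0.0711 for Cpr76Bc.

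The small Cpr76Bb, between Cpr76Ba and Cpr76Bc, was covered over 0% in both disc libraries, 39.6% and 25.4% at 48%, 20.5% and 0% at 60%, 66.5% and 77.6% at 69%, and 3.76% and 52.1% at 78%. The 69% libraries were highest, while the 78% libraries differed widely, and the adjusted p of the exact test was 0.156. Cpr76Ba, at the start of the run, was not listed in any library. Cpr76Bc and Cpr76Bd themselves were listed over part of the span in all 10 libraries, so the stages differed in the width covered.

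**Figure D5:**
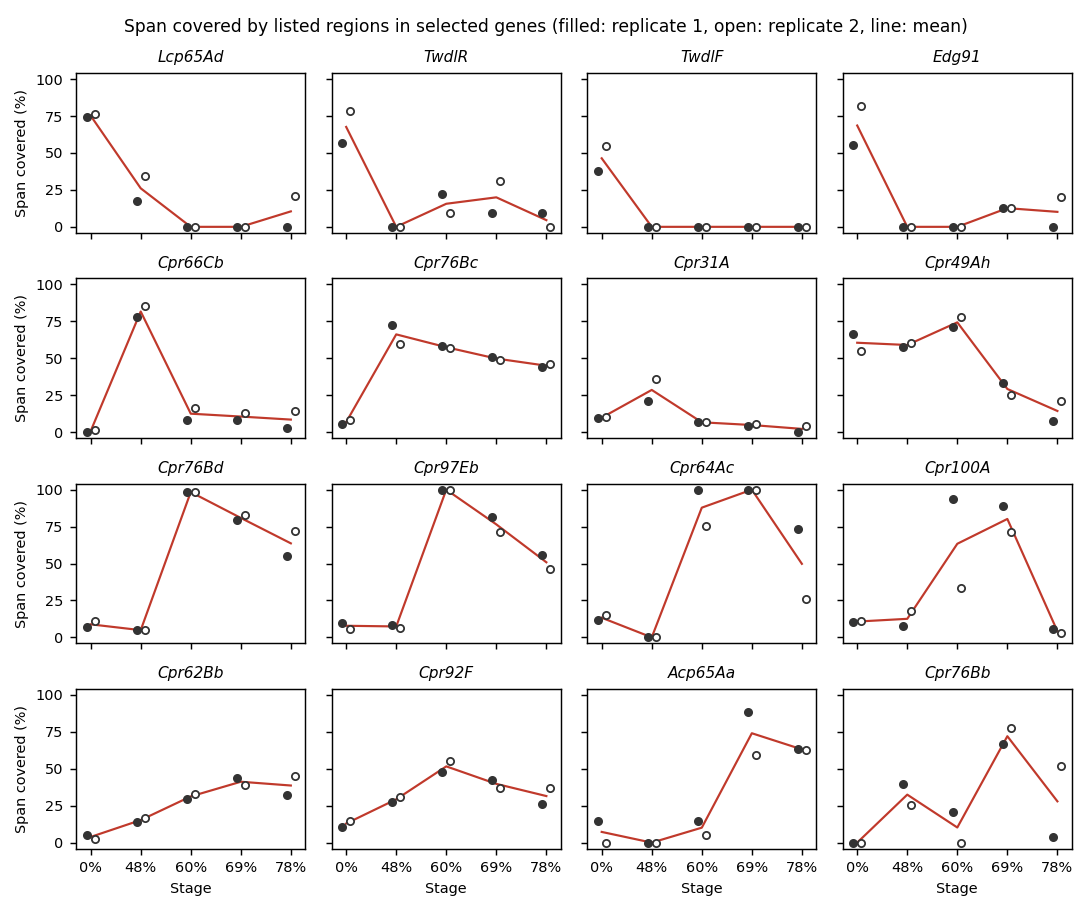
Percent of the span inside listed regions (vertical axis) by stage (horizontal axis) for cuticle genes described in the text, with filled circles for replicate 1, open circles for replicate 2 and a line through the stage means. The top row is highest in discs, Cpr66Cb at 48%, Cpr76Bd and Cpr97Eb at 60%, and Acp65Aa at 69% and 78%.

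A wide domain of the same kind lay over Cpr97Eb (3R, 27089704 to 27091130). The gene was covered over 9.88% and 5.82% in discs, 8.27% and 6.52% at 48%, 100% in both libraries of 60%, 81.7% and 71.3% at 69%, and 55.7% and 46.0% at 78% (adjusted p of the exact test 0.0356). Its region, at 27088279 to 27092145, was listed over 1136 to 1322 bp in the disc and 48% libraries, 3831 and 3807 bp at 60%, and 2550 to 3448 bp later. Here too part of the region was listed before the gene body was, and the 6 late libraries lay above the 4 early ones. Its neighbour Cpr97Ea had 25.9% and 29.6% in discs and 46.8% to 71.8% from 48% to 69%, with 40.3% and 39.2% at 78%.

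The 4 Cpr64A genes (3L, 4207838 to 4216414) all lie within the span of CG43367, so their values cannot be separated from that gene's. The run was covered over 33.3% ± 1.82 in discs, 31.7% ± 3.71 at 48%, 56.9% ± 7.08 at 60%, 71.9% ± 4.63 at 69% and 49.7% ± 3.17 at 78% (SD, n = 2). None of its 6 regions opened or closed in a successive step, so the gain lay in the width of regions that were already listed. Cpr64Ac had 11.4% and 15.1% in discs, 0% in both libraries of 48%, 100% and 75.6% at 60%, 100% in both libraries of 69%, and 73.4% and 26.2% at 78% (adjusted p of the exact test 0.0356). Cpr64Aa had 0% in discs, 9.84% and 0% at 48%, and 38.0% to 83.9% in the 6 later libraries, and an adjusted p of the exact test of 0.0761. Cpr64Ab had 20.0% and 50.2% in discs, 0% to 15.3% at 48%, 60% and 78%, and 86.1% and 86.2% at 69%.

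Cpr100A (3R, 30867521 to 30869184) was covered over 88.9% and 71.5% at 69%, 93.6% and 33.2% at 60%, and 2.94% to 17.5% at the other 3 stages. The replicates of 60% were far apart, and the exact test did not pass (adjusted p 0.130). Replicate 2 of 60% had 48036 regions and a fragment setting of 138 bp, against 71280 regions and 50 bp in replicate 1, and the part of this in the difference was not tested. Of its 10 regions, 2 closed from disc to 48%, 1 from 48% to 60% and 1 from 69% to 78%.

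Several Cpr genes that passed gained coverage in smaller steps. Cpr62Bb had 5.14% and 2.57% in discs, 13.9% and 16.6% at 48%, 29.8% and 32.7% at 60%, 43.7% and 38.7% at 69%, and 32.4% and 45.0% at 78% (adjusted p of the exact test 0.0492). It did not pass with equal list lengths (0.0555) or with 500 bp on each side (0.0543). Cpr92F went from 12.9% ± 2.89 in discs to 51.6% ± 5.59 at 60% and 31.5% ± 7.31 at 78% (SD, n = 2), and Cpr50Cb from 7.24% ± 4.65 to 36.7% ± 2.12 at 69% (SD, n = 2). For Cpr50Cb the adjusted p of the exact test was 0.0440, or 0.0549 to 0.102 without 1 library. Cpr49Ah lost coverage late, with 66.1% and 54.9% in discs, 57.7% and 60.2% at 48%, 71.0% and 77.7% at 60%, 33.5% and 24.9% at 69%, and 7.28% and 21.3% at 78%. In the first 3 of these genes the disc libraries lay below all pupal libraries, and in Cpr49Ah the 4 libraries of 69% and 78% lay below the 6 earlier ones.

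Cpr50Cb, with a 10455 bp span on 2R, held the most regions that opened or closed, 10 openings and closings in 20 regions. Inside it, regions at 13798216 to 13798813 and 13800147 to 13801202 opened from disc to 48% and those at 13801247 to 13801608 and 13801693 to 13802192 opened from 48% to 60%. The last of these closed again from 69% to 78%. Cpr92A, Cpr51A and Cpr62Bc had 6 such changes each, among 6, 7 and 11 regions. A region of Cpr51A at 14516438 to 14517225 was listed over 773 and 788 bp at 48%, in neither library of 60%, and over 136 to 301 bp at the other stages. In Cpr92A the region at 19598805 to 19599098 was listed in all libraries but those of 48%, where the lists were short.

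Late coverage was seen in the adult cuticle gene Acp65Aa (3L, 6152050 to 6152745), named for its protein in adult cuticle. It was covered over 14.5% and 0% in discs, 0% at 48%, 14.9% and 5.32% at 60%, 88.5% and 59.6% at 69%, and 63.6% and 62.6% at 78%. The 4 libraries of 69% and 78% lay above the 6 earlier ones, with an adjusted p of the exact test of 0.0909. It was 0.0412 with 500 bp on each side, 0.0745 with equal list lengths and 0.0673 to 0.147 without 1 library. Its region at 6152303 to 6153113 was listed over 101 to 240 bp in the disc and 48% libraries and over 658 to 806 bp at 69% and 78%. A nearby region at 6153239 to 6154265 was listed in both disc libraries, in neither of 48%, and again from 60% on. Acp1, the other adult cuticle gene of the rule, was listed in disc replicate 2 alone, over 4.41% of its span.

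Other genes absent at 48% or in discs varied in stage. Cpr47Ed had 0% in discs, 20.7% and 0% at 48%, 60.6% and 51.4% at 60%, 42.6% and 33.0% at 69%, and 0% and 13.9% at 78% (adjusted p of the exact test 0.0712). Cpr67Fa2 was listed in all libraries but those of 48%, with 28.9% and 34.2% in discs and 15.2% to 31.0% from 60% on. Cpr72Ea was listed in both libraries of 60% alone, over 8.80% and 19.9%. Cpr65Ec and Ccp84Ae were widest in replicate 2 of 78%, with 51.7% and 40.9%, but had 0% in replicate 1, so 1 library gave the whole value. Pcp, the pupal cuticle gene nested in Gart, was listed in 0% and 12.0% at 60%, 9.00% and 3.93% at 69% and 3.80% and 34.1% at 78%, and not before.

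The 65A run on 3L had the most genes, 18 in 31.2 kb, of which 8 were never listed. Listed regions filled 18.6% ± 2.11 in discs, 13.4% ± 0.906 at 48%, 15.6% ± 1.86 at 60%, 22.2% ± 2.18 at 69% and 21.9% ± 2.74 at 78% (SD, n = 2). From 48% to 78%, 8 of 23 regions opened and 1 closed, against backgrounds of 16.5% and 5.26%. Edg84A and the 7 Ccp84A genes, 20.5 kb on 3R, gave 18.9% ± 1.24, 12.2% ± 0.950, 14.3% ± 1.90, 21.4% ± 0.560 and 20.6% ± 6.39 in the same order (SD, n = 2), with 5 of 21 regions opened and 1 closed from 48% to 78%. Both runs were lowest at 48%. In the run of Cpr49A genes the means were 26.3%, 14.3%, 20.6%, 24.8% and 23.3%, and in that of Cpr62B genes 30.8%, 37.6%, 38.8%, 36.5% and 33.3%.

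The remaining runs had 4 to 10 openings and closings each over the successive steps. The 3 genes from Cpr65Ea to Cpr65Ec had 3 of 10 regions closed from disc to 48% (background 19.8%), and the run was covered over 35.8% ± 1.42 in discs and 15.5% ± 6.84 at 78% (SD, n = 2). Cpr72Ea to Cpr72Ec had 18.7% in discs, 0% at 48% and 4.70% to 6.44% later, with 3 of 4 regions opened from 48% to 60% (background 11.3%). Cpr47Ea to Cpr47Eg varied between 13.9% and 17.5%, Cpr67Fa1 to Cpr67Fb between 9.99% and 23.3%, Cpr78Ca to Cpr78Cc with Edg78E between 7.31% and 19.3%, and TwdlF to TwdlV between 14.3% and 26.5%. The 35 cuticle genes outside runs held 194 regions, of which 13 opened and 34 closed from disc to 48%, 16 opened and 7 closed from 48% to 60%, 12 opened and 2 closed from 60% to 69%, and 1 opened and 10 closed from 69% to 78%. The number assessed per step is not given for these genes. Over all assessed regions the shares opened and closed in these steps were 8.84% and 19.8%, 11.3% and 4.07%, 7.62% and 2.66%, and 3.17% and 4.35%. The more frequent direction was the same in each step, so it was not particular to the genes outside runs.

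At least 50% of the span was listed in both libraries for 8 cuticle genes in discs (6.50%, background 5.31% of all genes), 6 at 48% (4.88%, 4.11%), 10 at 60% (8.13%, 6.42%), 12 at 69% (9.76%, 6.86%) and 2 at 78% (1.63%, 5.66%). Among genes up to 2 kb the background was 8.74%, 5.74%, 9.46%, 9.75% and 8.32%, so the count at 78% was the one furthest below it. The disc genes were Lcp1, Cpr49Ah, Lcp65Ad, Cpr66D, Edg78E, Edg91, TwdlR and TwdlS. At 69% they were Cpr57A, Cpr64Aa, Cpr64Ab, Cpr64Ac, Acp65Aa, Cpr66D, Cpr76Bb, Cpr76Bd, TwdlS, Cpr97Ea, Cpr97Eb and Cpr100A. Cpr66D and TwdlS were in both sets, and by 78% only Acp65Aa and Cpr76Bd remained past that mark. Replicate 1 of 78% had the fewest tags, 56282342, and 37.5% of its tags inside regions, against 46.3% to 62.8% in the libraries of the earlier stages.

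No library listed any base of 18 cuticle genes, and 13 had no assigned region at all. The background of unlisted genes was 8.93% of all protein-coding genes and 16.2% of those up to 2 kb, against 14.6% of the cuticle genes. In the 65A run these were Lcp65Ag1, Lcp65Ac, Lcp65Ab2, Lcp65Ab1, Lcp65Aa, Cpr65Ax1, Cpr65Ax2 and Cpr65Az, which include the near-identical pairs Lcp65Ab1 with Lcp65Ab2 and Cpr65Ax1 with Cpr65Ax2. Another 7 lay on the X, namely Cpr5C, Cpr11A, Cpr11B, TwdlX, TwdlY, TwdlZ and Twdlalpha. The last of the 18 were Cpr47Eb, Cpr60D and Cpr76Ba.

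By chromosome arm, a listed base was found in 1 of 8 cuticle genes on the X, 8 of 8 on 2L, 25 of 27 on 2R, 38 of 47 on 3L and 33 of 33 on 3R. Over all protein-coding genes the share with a listed base was 75.2% on the X, 90.6% on 2L, 94.9% on 2R, 94.8% on 3L and 95.7% on 3R. On the X, 7 of 8 cuticle genes were thus unlisted, against a background of 24.8%. The wings were from males, which carry a single X, and the part of this in the values was not tested. The only X-linked cuticle gene with a listed base was Cpr12A, over 12.0% of its span in disc replicate 2. Of its 9 regions, 3 closed from disc to 48% and 1 from 69% to 78%. The run of TwdlX, TwdlY, TwdlZ and Twdlalpha, which lies within the span of goe, had no assigned region, although up to 1.66% of the interval was listed in the 48% libraries.

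Of the 17 seminal fluid genes, 13 had a listed base in at least 1 library, and Acp29AB, Acp63F, Acp76A and Acp95EF had none. Acp26Aa, whose product acts on egg laying after mating, was covered over 19.4% and 25.9% in discs, over 17.3% and 22.2% at 78% and not at all between. Its 6 regions had 5 openings and closings. Acp53Ea was covered over 57.4% and 81.8% in discs, 0% and 23.8% at 48%, and 75.2% to 91.0% from 60% on.

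The 48 genes of chitin and cuticle assembly and its regulators put the structural genes beside the rest of the pathway. Over all genes tested, 15.1% passed the same exact test, and 8.46% of those up to 2 kb. Of all genes that passed, the highest mean was at 0% for 27.4%, at 48% for 19.5%, at 60% for 13.6%, at 69% for 14.7% and at 78% for 24.8%. Of the 48 pathway genes, not matched in length to the structural genes, 18 passed. Their highest mean was at 0% for 4, at 48% for 8, at 60% for 4, and at 69% and 78% for 1 each. Among them, serp, a chitin deacetylase, had 63.2% ± 6.08 at 48% and 27.5% ± 2.26 at 78%, and obst-A, a chitin-binding organiser, 65.6% ± 15.4 and 15.2% ± 5.92 (SD, n = 2; adjusted p 0.0286 and 0.0356). Gasp, a chitin-binding protein, was highest at 60%, as was Cpr76Bd, with 70.6% ± 11.7 (SD, n = 2; adjusted p 0.0402), and so was the chitinase gene Cht6, with 37.1% ± 5.65 (SD, n = 2; adjusted p 0.0356). The tanning enzyme genes ebony (e) and Ddc, dopa decarboxylase, were highest at 69% and 78%, with 49.7% ± 1.91 and 52.5% ± 2.13 (SD, n = 2; adjusted p 0.0343 and 0.0286). None of the 10 structural genes that passed had its highest mean as late as Ddc. Genes covered at 78% alone could not pass, so the test cannot show whether structural genes differ from Ddc here. Without regard to the test, 12 of 61 Cpr genes with a listed base were highest at 78%, and none of 21 Twdl genes. No share over all protein-coding genes stands beside these counts.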

How the data were processed

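Open regions came from the deposited lists of single libraries. The submitters' processing notes name HOMER, MACS2, Bowtie2, SAMtools and Picard without versions, and the build dm6. Per the file headers, HOMER findPeaks joined 100 bp windows at a Poisson p of 0.001 for a 120 Mb genome, with no input control. The score column of the deposited lists is the constant 1 and ranks nothing, and their other columns are the authors' coordinates. Only position and width were used, and line order for the lists of equal length. What that order reflects is not known here, so the regions kept there need not be the strongest. No read depth per region was used here. A stage that the labels call 47% in one place is the 48% stage.

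The gene table, of the same assembly, gives 1 span per gene. Strand, start sites, sequences and proteins were not used here, so the planned look at promoters and proteins was not made. Overlapping entries were merged, and 93.2% of regions were assigned to a gene. Runs of genes had under 20 kb between neighbours and at least 3 members. Python 3.11.15 with numpy 2.4.6 and pandas 2.3.3 was used, and the rule and the test were tested on simulated data. Tests were exact permutations over libraries with Benjamini-Hochberg adjustment over all genes. How wings were shared out between replicates is not given in the labels, so p-values measure the spread between these libraries.

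The members and lists were chosen with earlier results of these data known. Genes named by rule were the member of each run with the widest range of stage means, the 10 with most opened plus closed regions, the 5 with the lowest p and widest range, and 6 unlisted genes. The others, among them Cpr66Cb, Cpr50Ca, Acp65Aa, Edg91, TwdlP and TwdlS, were chosen after their values were seen. Alternatives were an equal number of regions per library, 50% of the region or span covered, spans with 500 bp on each side, overlap alone, the authors' pooled lists, each replicate left out, and the seminal fluid genes left out. The replicate block and each single library left out of the test were added after the data had been examined. Lists from the pooled replicates were used in that alternative alone.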

Additional observations from a re-analysis of the deposited data

How the results depend on the processing

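Counts here cover all 140 genes and 486 regions. The direction of each successive step, by whether opening or closing was more frequent, held under the settings below except from 69% to 78% in replicate 2 alone or in the pooled lists, and list length and coverage rules moved the counts. With lists of equal length, 44 opened and 48 closed from 0% to 48% (28 and 81 as reported), 19 opened from 48% to 60% (34), 19 opened and 12 closed from 60% to 69% (31 and 7), 4 opened from 69% to 78% (10), and 32 opened and 33 closed from 48% to 78% (63 and 17). With at least 50% of a region covered, 46 opened from 0% to 48%, and 21, 32 and 40 closed from 48% to 60% (11), 69% to 78% (16) and 48% to 78%. The pooled lists, 1 against 1, gave 43 opened and 167 closed, 63 and 25, 79 and 15, 41 and 40 in the successive steps, and 136 and 33 from 48% to 78%. Overlap alone gave 15 and 46, 20 and 7, 19 and 3 in the first 3 steps, 10 closed from 69% to 78%, and 35 and 8 from 48% to 78%. Without 1 replicate, 47 to 50 opened and 98 to 175 closed from 0% to 48%, 49 to 81 and 18 to 31 from 48% to 60%, 56 to 80 and 15 to 29 from 60% to 69%, 28 to 51 and 40 to 57 from 69% to 78%, and 91 to 128 and 30 to 34 from 48% to 78%. Genes with 50% of the span covered numbered 13, 7, 12, 15 and 4 by stage, and spans with 500 bp on each side gave 77, 93, 108 and 102 at 48% to 78%.

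The stage test called 10 genes, 26 with 500 bp on each side, 2 of them seminal fluid genes (19.2% of all genes), 0 to 6 without 1 library, and 0 with the replicate block, where no gene of the genome passed (smallest adjusted p 0.112) and 21 of the 118 genes tested had an unadjusted p under 0.05. Replicate numbers did not pair the samples: deviations of replicate 1 correlated at -0.155 to 0.121 between stages. Of 348 checks of single named genes, 265 kept their call, 75 lost it and 8 gained it. Among the checks of headline values, 69 moved and 50 stayed the same. The cause was not tested. Unknown depth per region and 2 libraries per stage limit all values.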

Other observations

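Genes of the wider cuticle pathway beyond those given above had late and early profiles of their own. The dyl gene, which encodes an apical matrix protein of wing hairs, was covered over 18.6% ± 1.93 in discs, 49.5% ± 4.73 at 48%, 41.2% ± 3.30 at 60%, 28.8% ± 1.77 at 69% and 23.2% ± 2.45 at 78% (SD, n = 2; adjusted p of the exact test 0.0286). The chitin synthase gene kkv had its highest mean at 48% too, at 27.6% ± 1.74 (SD, n = 2; adjusted p of the exact test 0.0402). The ple gene, which encodes tyrosine hydroxylase at the head of the tanning pathway, had 10.6% to 19.8% in its stage means up to 69% and 86.1% ± 16.4 at 78% (SD, n = 2; adjusted p of the exact test 0.0956). Its highest stage was 78%, like that of Ddc, but ple did not pass the test. Among structural genes with a listed base, 12 of 61 Cpr, 3 of 7 Ccp84A and 1 of 3 Edg genes and Pcp were also highest at 78%. None of the 21 Twdl or 10 Lcp genes was. These counts of means also have no test and no share over all protein-coding genes beside them.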
